A study of Mus musculus with 12 samples.

Results

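Solute carriers are membrane proteins that move small molecules and ions across the plasma membrane and the membranes of mitochondria, lysosomes, the Golgi and other compartments. Of 53656 genes in the deposited count tables, 348 had a symbol made of Slc, a family number, the letter a and a member number. The 168 genes described here are those of the 348 that had at least 10 raw reads in at least 3 of the 12 libraries, with 5 symbols left aside (Slc2a1, Slc2a3, Slc16a1, Slc16a3 and Slc12a8). The pattern takes in Slc35a but not the other Slc35 subfamilies, which were not analysed here. A further 175 symbols stayed under that minimum, 67 of them with 0 reads in every library. The members were thus chosen by their read counts, so that a gene's presence among the 168 is no result. Of the 168, 163 are carriers, in 41 families, and 5 are named after a carrier without being one: Slc9a3r1, a scaffold protein that binds carriers, and Slc4a1ap, Slc7a6os, Slc36a3os and Slc2a4rg-ps.

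As background, carriers differ in what they move and in which direction. The heavy chain Slc3a2 brings light chains such as Slc7a5 to the plasma membrane, where the pair exchanges glutamine inside the cell for leucine and other large neutral amino acids outside. Slc25 proteins sit in the inner mitochondrial membrane and move nucleotides, amino acids and organic acids. Slc39 proteins move zinc and other metals into the cytosol, whereas Slc30 proteins move zinc out of it. In activated T cells amino acid carriers such as Slc7a5, Slc3a2 and Slc1a5 are known to be needed for growth.

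The data are bulk RNA sequencing of mouse thymocytes, made with a low-input SMARTer kit on sorted cells. The 4 groups of 3 libraries, as titled, were immature CD4 cells lacking Zfp148 and Zfp281 (dKO ImCD4), control ImCD4 cells, immature CD8 cells lacking both genes (dKO ImCD8) and control ImCD8 cells. Cells of every group carried loxP-flanked alleles of both genes, which encode zinc finger proteins that bind G-rich DNA. In dKO mice Cd4-Cre, a recombinase under Cd4 control that acts in thymocytes from the double-positive stage, deleted them. The controls carried no Cre, so that an effect of Cre alone cannot be told apart from loss of the genes. ImCD4 cells were sorted as CD69+ CD44low single CD4-positive cells without surface H2-Kb, and ImCD8 cells as CD69+ CD44low single CD8-positive cells with surface TCRb. The gates thus differ in more than the coreceptor. In the 6 ImCD8 libraries the genotype field is the opposite of the title (titled controls are given as Cre-positive), and the groups here follow the titles. Zfp148 averaged 66.5 ± 3.13 CPM in dKO ImCD4 and 180.2 ± 3.01 CPM in control ImCD4, and 54.9 ± 8.70 CPM in dKO ImCD8 and 165 ± 4.84 CPM in control ImCD8 (SD, n = 3 each). Zfp281 averaged 18.6 ± 2.62 CPM in dKO ImCD4 and 486 ± 65.6 CPM in control ImCD4, and 12.8 ± 2.36 CPM in dKO ImCD8 and 119 ± 7.93 CPM in control ImCD8. Both targeted genes were thus lower in every library titled dKO than in every control of its population. Zfp148 transcript remained at 0.369 (ImCD4) and 0.333 (ImCD8) of the control level, and Zfp281 at 0.0383 and 0.108. The labels state no age, sex or strain. They do not say whether replicates are different mice, so that the p-values reflect variation among libraries and could be technical in origin.

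Reads assigned to genes numbered between 7315833 and 10943143 per library. In ImCD4 the dKO libraries had more of them than the controls (9319732 to 10943143, against 8276742 to 9173424), a smaller share of reads outside genes (10.5% to 12.9%, against 13.6% to 16.4%) and a smaller mitochondrial share (0.633% to 0.961%, against 1.07% to 1.31%); the part of these differences in the ImCD4 results was not tested. For the cell type markers, CPM are read counts relative to the library size without TMM scaling. Other CPM are relative to the TMM-scaled library size. Cd4 ranged over 1371 to 1422 CPM in dKO ImCD4 and 1127 to 1187 CPM in control ImCD4. In dKO and control ImCD8 libraries it ranged over 3.59 to 10.7 CPM and 1.35 to 4.71 CPM. The summed B cell markers ranged over 64.3 to 92.6 CPM in dKO ImCD4, 73.6 to 97.1 CPM in control ImCD4, 363 to 475 CPM in dKO ImCD8 and 310 to 391 CPM in control ImCD8, nearly all of it Ighm, with Ms4a1 at or near 0. One of 3 tested B cell markers, Cd79b, passed the test (higher in dKO ImCD8). Single markers of other lists also passed, each higher in dKO: Cd3g (T cells), Runx3 (ImCD8 gate) and Prss16 (thymic epithelium) in ImCD4, and Cd40lg (ImCD4 gate) and Epcam (thymic epithelium) in ImCD8; their part in the results was not tested. Summed thymic epithelial markers were higher in dKO libraries of both populations without overlap (7.34 to 10.6 CPM against 4.91 to 6.77 CPM in ImCD4, and 15.8 to 22.8 CPM against 9.84 to 10.8 CPM in ImCD8), nearly all of it Epcam and Prss16, with Krt14, Foxn1 and Aire at or near 0. The double-positive thymocyte markers summed to 45.2 to 77.0 CPM in dKO ImCD4, against 85.7 to 121 CPM in control ImCD4, with 0 of 4 tested genes called. Replicate 3 of each group stood apart on the third principal component of the members' levels (7.73% of their variance), while the first (62.2%) separated ImCD4 from ImCD8 and the second (12.8%) dKO from control.

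Without correction for gene length, the 168 genes spanned mean levels over the 12 libraries from 0.476 CPM for Slc7a8, a light chain partner of Slc3a2, to 844 CPM for Slc44a2, a choline carrier of the plasma and mitochondrial membranes, with a median of 27.01 CPM. Of them, 31 averaged under 5 CPM and 19 over 100 CPM. Per kilobase of exon, the highest was Slc25a5, the adenine nucleotide translocase that exchanges mitochondrial ATP for cytosolic ADP, at 506 CPM per kb, followed by Slc9a3r1 at 230.3, Slc44a2 at 97.2 and Slc25a4, a second adenine nucleotide translocase, at 73.9. Slc25a11, the oxoglutarate and malate exchanger, stood at 69.6 CPM per kb. The highest amino acid carriers per length were Slc38a2, a sodium-coupled neutral amino acid carrier, at 45.8 CPM per kb, Slc1a5, which takes up glutamine, at 44.7 and Slc3a2 at 32.2. As a share of all gene counts, the 168 genes together took 0.925% to 0.980% in dKO ImCD4 and 0.867% to 0.916% in control ImCD4, which did not overlap. The shares were 0.900% to 0.982% in dKO ImCD8 and 0.887% to 0.919% in control ImCD8, which did overlap. Abundant genes weigh most in such a sum. The rise of Slc25a5 in dKO ImCD4, given below, is part of the ImCD4 difference, while the median log2 fold change of the tested members there was 0.08.

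The count minimum was reached in libraries of every group by 156 of the 168 genes and in all 12 libraries by 146. Just inside it, with 3 libraries at 10 reads, were Slc22a23 (111 reads in all), Slc4a4 (146 reads) and Slc7a8 (56 reads). Just outside, with 1 such library, were Slc24a5, Slc29a4, Slc39a5, Slc6a8, Slc16a7, Slc45a3 and Slc4a10 (47 to 62 reads). Slc4a4 reached the minimum in dKO ImCD4 libraries alone, so that it had to differ to be among the 168, and Slc7a8 and Slc7a11, a cystine and glutamate exchanger, reached it in ImCD4 libraries alone. One gene, Slc36a3, was too low to test.

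Of the 167 tested genes, 28 passed the test in dKO against control ImCD4 cells, 22 higher and 6 lower in dKO. That is 16.8%, against 13.4% of all 13383 genes tested (7.26% higher and 6.16% lower). In ImCD8 cells 5 passed, 4 higher and 1 lower in dKO, which is 2.99%, against 6.14% of all genes (2.62% higher and 3.53% lower). The shares of the 167 were thus near the background in ImCD4 and under it in ImCD8. Because members entered by their counts, these shares describe the list and test nothing about it. The median log2 difference of the 167, dKO over control, was 0.08 in ImCD4 and 0.07 in ImCD8, against 0.02 and 0.01 over all genes. Among the 156 genes at the minimum in every group, the ImCD4 calls numbered 26 (21 higher, 5 lower). Most calls were small: 3 of 28 in ImCD4 passed 2-fold, among them Slc4a4 (higher) and Slc25a13 (lower), and 0 of 5 in ImCD8. In every one of the 33 calls the libraries of the groups compared did not overlap. Such a lack of overlap was found in 64 of 167 members in ImCD4 (40 higher, 24 lower in dKO), against 33.8% of all genes (18.1% higher, 15.7% lower). In ImCD8 it was found in 38 members (24 higher, 14 lower), against 21.8% of all genes (10.3% higher, 11.5% lower). Leaving out each library in turn gave 16 to 30 calls in ImCD4 (16 without dKO ImCD4 replicate 2 and 17 without control ImCD4 replicate 1) and 3 to 8 in ImCD8 (3 without control ImCD8 replicate 1 or 2, and 8 without control ImCD8 replicate 3 or dKO ImCD8 replicate 1).

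**Figure D1:**
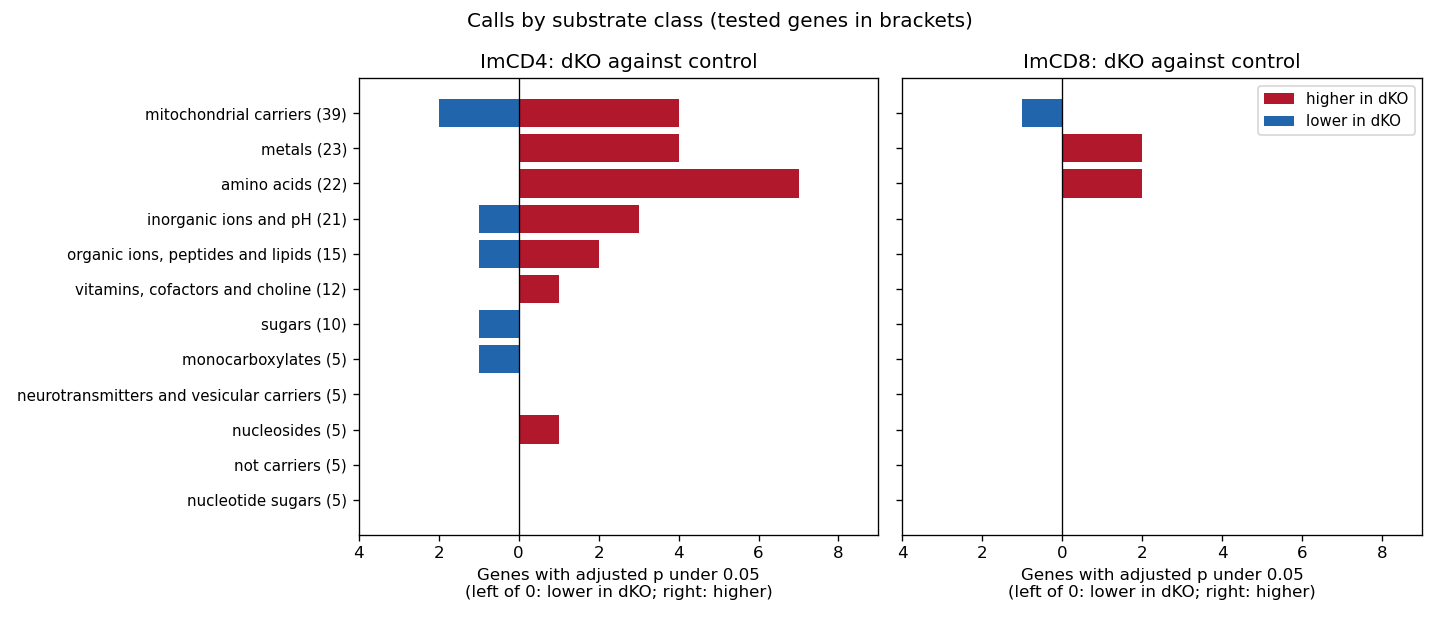
Number of solute carrier genes per substrate class (rows, with the number tested in brackets) that passed the test, higher in dKO to the right of 0 and lower to the left, in ImCD4 (left panel) and ImCD8 (right panel). Amino acid carriers hold the most calls in ImCD4, 7 higher and 0 lower of 22 tested (3 higher without control ImCD4 replicate 1 or 2), and in ImCD8 the 5 calls fall in the amino acid, metal and mitochondrial classes. Classes were chosen with earlier results known, and Slc6a19 was put in the amino acid class after its values were seen.

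By substrate, the amino acid carriers had the most calls in ImCD4: 7 of 22 tested passed (31.8%, against 13.4% of all genes), each higher in dKO. That number was 3 without control ImCD4 replicate 1 or without replicate 2. The log2 fold changes of all 22 in ImCD4 ran from -0.96 to 0.79, with a median of 0.18, so that not every carrier of the class rose. Mitochondrial carriers had 6 of 39 (15.4%; 4 higher, 2 lower) and metal and haem carriers 4 of 23 (17.4%; each higher), near the share over all genes. Carriers of inorganic ions had 4 of 21 (3 higher, 1 lower) and carriers of organic ions, peptides and lipids 3 of 15 (2 higher, 1 lower). Single calls came from nucleoside carriers (1 of 5, higher), vitamin, cofactor and choline carriers (1 of 12, higher), sugar carriers (1 of 10, lower) and the monocarboxylate family (1 of 5, lower). In ImCD8 the calls were 2 of 22 amino acid carriers, 2 of 23 metal carriers and 1 of 39 mitochondrial carriers (9.09%, 8.70% and 2.56%, against 6.14% of all genes). The 2 amino acid calls were Slc6a19, put in this class after its values were seen, and Slc16a10. Slc16a10, also called in ImCD4, is of a family whose other members here were classed as monocarboxylate carriers. Classes were chosen with earlier results known, so that their shares describe them and test nothing. None of the 5 nucleotide sugar carriers, the 5 neurotransmitter and vesicular carriers or the 5 genes that are no carriers passed in either population by edgeR's quasi-likelihood test.

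Among the amino acid carriers, the heavy chain Slc3a2 and the light chains Slc7a5 and Slc7a6 rose in dKO ImCD4 cells. Slc3a2 (chr19:8706882-8723369, mm10) had 115, 128 and 128 CPM in dKO ImCD4 libraries, against 83.7, 83.5 and 91.3 CPM in control ImCD4 libraries. Every dKO library lay above every control, and the log2 fold change was 0.52 ± 0.07 (SE; edgeR quasi-likelihood test with Benjamini-Hochberg adjustment over all genes, adjusted p = 0.000139). Its light chain Slc7a5 (chr8:121881150-121907694), the carrier of leucine and other large neutral amino acids, had 93.6, 105 and 121 CPM in dKO ImCD4 libraries, against 68.8, 73.04 and 75.8 CPM in control ImCD4 libraries. These libraries did not overlap either, with a log2 fold change of 0.55 ± 0.09 (adjusted p = 0.000878). In ImCD8 the same genes gave 129 ± 4.49 CPM in dKO ImCD8 and 116 ± 4.85 CPM in control ImCD8 for Slc3a2 (log2 fold change 0.15 ± 0.07, adjusted p = 0.246), and 105 ± 4.33 CPM in dKO ImCD8 and 98.7 ± 8.35 CPM in control ImCD8 for Slc7a5 (0.09 ± 0.09, adjusted p = 0.666). Both genes were lower in control ImCD4 than in control ImCD8 cells (log2 differences -0.42 and -0.44, adjusted p = 0.000153 and 0.00109), whereas between the dKO populations the differences were -0.06 ± 0.07 and 0.02 ± 0.09 (adjusted p = 0.558 and 0.892).

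A second Slc3a2 partner, Slc7a6, which exchanges cationic for neutral amino acids, averaged 132 ± 10.99 CPM in dKO ImCD4 and 104 ± 7.33 CPM in control ImCD4 (log2 fold change 0.34 ± 0.09, adjusted p = 0.0197). Slc43a1, a large neutral amino acid carrier that works without the heavy chain, had 9.37, 7.94 and 8.34 CPM in dKO ImCD4 libraries, against 4.71, 4.75 and 5.40 CPM in control ImCD4 libraries. It rose by the most of this class in ImCD4, with a log2 fold change of 0.79 ± 0.16 (adjusted p = 0.00426), at a level far below that of Slc3a2 per length (1.35 against 32.2 CPM per kb over the 12 libraries). The glutamine carrier Slc38a1 averaged 189 ± 7.96 CPM in dKO ImCD4 and 161 ± 4.92 CPM in control ImCD4, a small rise of 0.23 ± 0.07 (adjusted p = 0.0284), and was the single member called in ImCD4 whose estimate had the other sign in ImCD8 (-0.01 ± 0.07). Its call was lost without control ImCD4 replicate 1, 2 or 3 or dKO ImCD4 replicate 2 or 3 (adjusted p up to 0.0987) and with replicate 3 of all 4 groups left out (adjusted p = 0.167). Slc7a6 lost its call without control ImCD4 replicate 1 or 2 or dKO ImCD4 replicate 2 or 3 (adjusted p up to 0.0843). In all, 3 amino acid carriers remained called higher in ImCD4 without control ImCD4 replicate 1 or without replicate 2, and 4 without dKO ImCD4 replicate 2.

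Slc1a5, which brings glutamine into the cell in exchange for other neutral amino acids, had 158, 164 and 206 CPM in dKO ImCD4 libraries, against 112, 111 and 136 CPM in control ImCD4 libraries. In ImCD8 it had 215, 256 and 328 CPM in dKO ImCD8 libraries, against 167, 169 and 219 CPM in control ImCD8 libraries. In ImCD4 the groups did not overlap, and in ImCD8 control replicate 3 lay above dKO replicate 1. The log2 fold changes were 0.56 ± 0.17 in ImCD4 (adjusted p = 0.0464) and 0.53 ± 0.16 in ImCD8, where the gene missed the threshold (adjusted p = 0.0892), with a difference between them of 0.03 ± 0.23 (adjusted p = 0.985). Replicate 3 was the highest of its group in each of the 4 groups. Without those 4 libraries the adjusted p was 0.000534 in ImCD4 and 0.00145 in ImCD8. The ImCD4 call was lost in 9 of 12 runs that left out a single library: every ImCD4 library, control ImCD8 replicate 1 or 2, and dKO ImCD8 replicate 2 (adjusted p up to 0.147).

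Slc6a19, a sodium-coupled neutral amino acid carrier known for uptake in gut and kidney, rose in dKO ImCD8 cells: it had 85.4, 85.3 and 88.7 CPM in dKO ImCD8 libraries, against 38.9, 46.1 and 50.7 CPM in control ImCD8 libraries. The groups were well apart, with a log2 fold change of 0.93 ± 0.24 and an adjusted p of 0.0444. In ImCD4 it was low, with 4.996, 4.69 and 1.07 CPM in dKO ImCD4 libraries, against 2.83, 2.76 and 0.954 CPM in control ImCD4 libraries, and replicate 3 was the lowest of both groups (log2 fold change 0.77 ± 0.48, adjusted p = 0.332). The summed ImCD8 gate markers (without TMM scaling) in the same ImCD4 libraries ranged over 140 to 301 CPM in dKO and 123 to 249 CPM in controls. Their part in these low levels was not tested. The ImCD8 call was lost in 9 of 12 runs without a single library (adjusted p up to 0.170, without control ImCD8 replicate 1): every ImCD8 library, control ImCD4 replicate 1 or 2, and dKO ImCD4 replicate 2. It was also lost with DESeq2 or with no filter on low counts (up to 0.282). Without replicate 3 of every group the adjusted p was 7.32e-06.

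**Figure D2:**
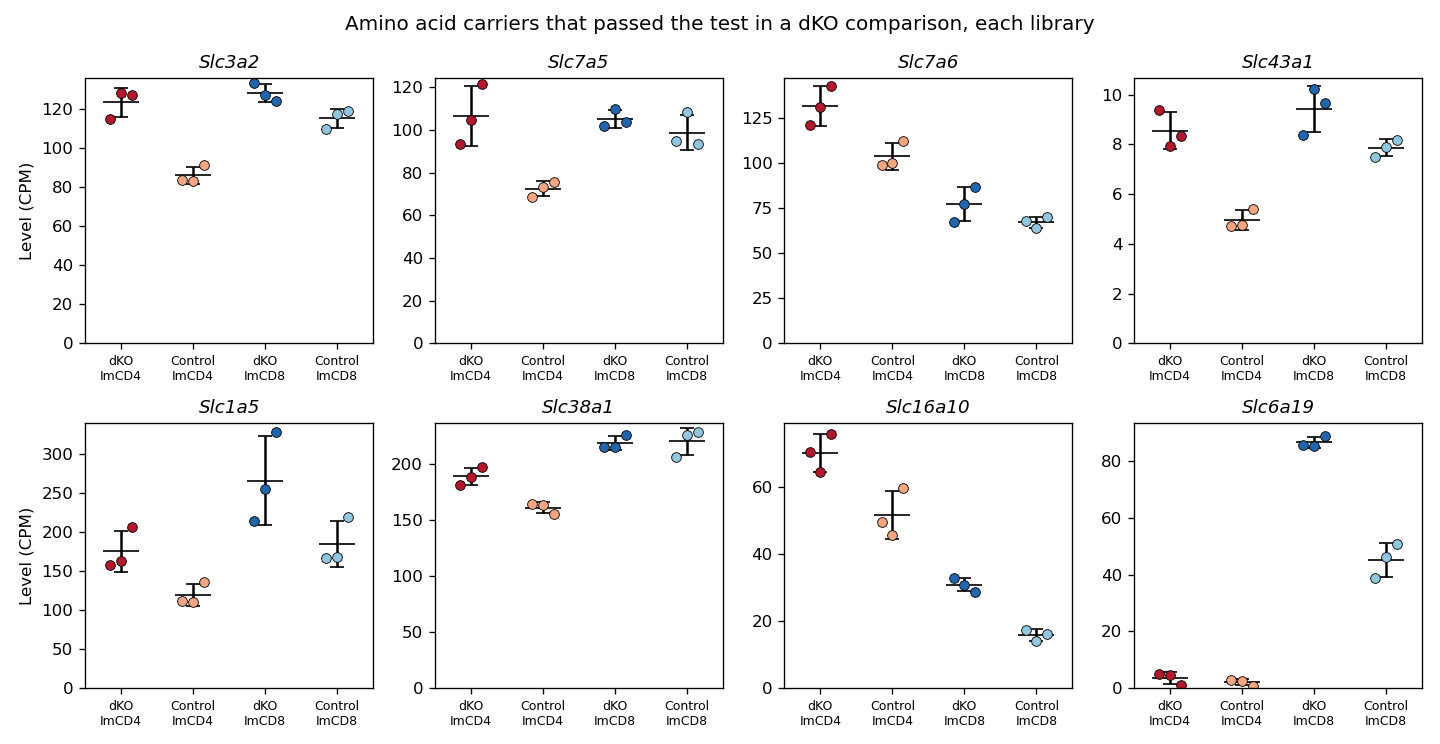
Level in CPM (vertical axes, each from 0) of the 8 amino acid carriers that passed the test in ImCD4 or ImCD8, with 1 point per library, a horizontal line at the group mean and bars of 1 SD (n = 3 per group). Slc3a2 and Slc7a5 are higher in dKO than in control ImCD4 without overlap, Slc16a10 is higher in dKO in both populations, and Slc6a19 is near 0 in ImCD4 and between 38.9 and 88.7 CPM in ImCD8.

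Across both populations, 4 carriers passed in the same direction: Slc16a10, Slc30a4 and Slc39a14 higher and Slc25a13 lower in dKO. They are 14.3% of the 28 ImCD4 calls and 80.0% of the 5 ImCD8 calls, and 0 members passed in opposite directions; over all genes tested 3.66% passed in both in the same direction (1.42% higher in both, 2.24% lower in both) and 0.0523% in opposite directions. The number was 1 without control ImCD4 replicate 1, 2 without control ImCD4 replicate 2 or dKO ImCD4 replicate 2, and 8 without control ImCD8 replicate 3. Of the 28 genes called in ImCD4, 27 (96.4%) had the same sign in ImCD8 and 25 (89.3%) had the larger estimate in ImCD4. Over all 1797 genes called in ImCD4 these shares were 88.6% and 85.4%; genes picked by passing in ImCD4 tend to have the larger estimate there, so that the second share says nothing of the populations.

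Of these 4, 3 had a promoter window in the RefSeq table (GRCm38.p6). The 250 bases before the annotated start are printed for them because they are the carriers that moved in both populations, and because the deleted factors bind G-rich DNA. Capitals mark GGGAGGGG on either strand (CCCCTCCC in Slc30a4) or CACGTG (in Slc25a13); all 3 windows read 5′ to 3′ on the minus strand, upstream end first.
Slc16a10 (chr10:40142255-40142504, minus strand): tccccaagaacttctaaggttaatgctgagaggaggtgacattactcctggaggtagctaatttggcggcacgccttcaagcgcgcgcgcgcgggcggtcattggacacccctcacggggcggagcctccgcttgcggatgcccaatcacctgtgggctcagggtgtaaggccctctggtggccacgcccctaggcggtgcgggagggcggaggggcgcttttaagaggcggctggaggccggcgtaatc
Slc30a4 (chr2:122702664-122702913, minus strand): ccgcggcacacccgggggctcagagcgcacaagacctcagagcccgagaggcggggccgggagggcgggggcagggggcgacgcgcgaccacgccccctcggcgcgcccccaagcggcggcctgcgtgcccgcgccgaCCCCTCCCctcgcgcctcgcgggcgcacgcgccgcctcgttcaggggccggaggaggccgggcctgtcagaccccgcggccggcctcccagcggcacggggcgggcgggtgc
Slc25a13 (chr6:6217174-6217423, minus strand): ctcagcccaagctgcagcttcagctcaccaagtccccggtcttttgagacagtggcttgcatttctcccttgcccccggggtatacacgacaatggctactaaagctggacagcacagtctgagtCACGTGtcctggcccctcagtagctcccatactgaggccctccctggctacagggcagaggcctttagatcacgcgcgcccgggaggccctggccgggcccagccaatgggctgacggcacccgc
Slc30a4 had 1 match to the G-rich motif and Slc25a13 1 match to CACGTG, and the Slc16a10 window held neither run of letters. GGGAGGGG was found in 10.9% of all 32851 such windows, in 14.2% of those of tested genes and in 27 of 167 windows (16.2%) of the 126 members in the table. CACGTG, the E-box, was found in 6.02%, 8.55% and 12.6% of these sets. Of the 29 members called in either population, 19 had a window. GGGAGGGG occurred in 6 of 30 windows of the 15 members called higher, where Slc29a1 alone had 8 windows, 2 of them with a match. It occurred in 2 of 5 windows of the 4 members called lower, both of them windows of Slc25a23. By gene, it occurred in Slc19a1, Slc25a15, Slc25a23, Slc29a1, Slc30a4 and Slc43a1. Windows of 1 gene can overlap, and a match is a run of letters, not a binding site.

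Slc16a10 (chr10:40033532-40142258), which carries tyrosine, tryptophan, and phenylalanine, rose in dKO ImCD8 by the most of the 5 called there. It had 32.8, 30.9 and 28.9 CPM in dKO ImCD8 libraries, against 17.4, 14.1 and 16.3 CPM in control ImCD8 libraries, and 70.4, 64.5 and 75.8 CPM in dKO ImCD4 libraries, against 49.6, 45.7 and 59.8 CPM in control ImCD4 libraries. In neither population did the groups overlap, and every ImCD4 library lay above every ImCD8 library. The log2 fold change was 0.44 ± 0.11 in ImCD4 (adjusted p = 0.0112) and 0.95 ± 0.12 in ImCD8 (adjusted p = 0.000133), and the ImCD4 call was lost without control ImCD4 replicate 1 or 2 (adjusted p up to 0.0605).

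Slc30a4 (chr2:122681233-122702663), which moves zinc out of the cytosol into vesicles, had 44.96, 39.1 and 40.1 CPM in dKO ImCD8 libraries, against 28.6, 28.5 and 28.1 CPM in control ImCD8 libraries. In ImCD4 it had 44.8, 41.1 and 38.9 CPM in dKO ImCD4 libraries, against 33.3, 34.03 and 32.3 CPM in control ImCD4 libraries. The dKO libraries lay above the controls in both populations, and the 3 control ImCD8 values were close together. The log2 fold changes were 0.33 ± 0.09 in ImCD4 (adjusted p = 0.0226) and 0.54 ± 0.09 in ImCD8 (adjusted p = 0.00132). The ImCD4 call was lost without control ImCD4 replicate 1, 2 or 3 or dKO ImCD4 replicate 1 or 2 (adjusted p up to 0.0966). Its exons overlap those of 4930417H01Rik on the other strand.

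Slc39a14 (chr14:70303469-70351425), which brings zinc, manganese and iron into the cytosol, had 78.9, 82.6 and 70.3 CPM in dKO ImCD8 libraries, against 58.4, 59.6 and 59.2 CPM in control ImCD8 libraries. In ImCD4 it had 116, 124 and 118 CPM in dKO ImCD4 libraries, against 87.8, 102 and 101 CPM in control ImCD4 libraries. Again no dKO library fell among the controls. The log2 fold changes were 0.30 ± 0.08 in ImCD4 (adjusted p = 0.0164) and 0.39 ± 0.08 in ImCD8 (adjusted p = 0.00757), and the ImCD4 call was lost without control ImCD4 replicate 1 or dKO ImCD4 replicate 2 (adjusted p up to 0.0906).

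Slc25a13 (chr6:6041218-6217173), the mitochondrial aspartate and glutamate exchanger also called citrin, fell in both. It had 6.51, 6.51 and 3.42 CPM in dKO ImCD4 libraries, against 11.8, 11.7 and 10.4 CPM in control ImCD4 libraries. In ImCD8 it had 9.14, 8.83 and 7.39 CPM in dKO ImCD8 libraries, against 16.5, 15.8 and 12.4 CPM in control ImCD8 libraries. Each dKO library was below each control of its population, and dKO ImCD4 replicate 3 was the lowest of the 12. The log2 fold changes were -1.03 ± 0.21 in ImCD4 (adjusted p = 0.00390) and -0.81 ± 0.20 in ImCD8 (adjusted p = 0.0221), and the ImCD8 call was lost without control ImCD8 replicate 1 or 2 or dKO ImCD8 replicate 3 (adjusted p up to 0.106). Its paralog Slc25a12, with the same exchange activity, averaged 98.99 ± 4.30 CPM in dKO ImCD4 and 102 ± 10.99 CPM in control ImCD4 and did not pass (log2 fold change -0.04 ± 0.08, adjusted p = 0.773).

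Other mitochondrial carriers passed in ImCD4. Slc25a5 had 928, 959 and 1006 CPM in dKO ImCD4 libraries, against 710.0, 691 and 667 CPM in control ImCD4 libraries, without overlap and with a log2 fold change of 0.48 ± 0.08 (adjusted p = 0.000581). Its paralog Slc25a4 averaged 127 ± 13.1 CPM in dKO ImCD4 and 142 ± 15.5 CPM in control ImCD4 (-0.16 ± 0.10, adjusted p = 0.308), and reads of near-identical copies of Slc25a5 may have been split by the counting. Slc25a15, which exchanges ornithine for citrulline, averaged 24.7 ± 2.82 CPM in dKO ImCD4 and 16.3 ± 0.812 CPM in control ImCD4 (log2 fold change 0.59 ± 0.11, adjusted p = 0.00203). Slc25a11 averaged 167 ± 5.35 CPM in dKO ImCD4 and 133 ± 4.98 CPM in control ImCD4 (0.33 ± 0.07, adjusted p = 0.00675). Slc25a51, which brings NAD into mitochondria, averaged 76.97 ± 3.59 CPM in dKO ImCD4 and 65.3 ± 2.10 CPM in control ImCD4 (0.24 ± 0.07, adjusted p = 0.0354); the call was lost without any of the 3 control ImCD4 libraries or dKO ImCD4 replicate 1 or 2 (adjusted p up to 0.122). Slc25a23, a calcium-regulated exchanger of ATP-magnesium for phosphate, fell: it had 29.98, 31.01 and 29.9 CPM in dKO ImCD4 libraries, against 49.7, 51.3 and 51.9 CPM in control ImCD4 libraries. The 3 dKO values lay close together and well below the controls, with a log2 fold change of -0.75 ± 0.12 (adjusted p = 0.000617). In ImCD8 its value was -0.43 ± 0.13 (adjusted p = 0.0549).

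Slc29a1, 1 of 5 nucleoside carriers tested, and the folate carrier Slc19a1 also rose in dKO ImCD4. Slc29a1 (chr17:45585200-45599606), the equilibrative nucleoside carrier of the plasma membrane, had 70.1, 82.1 and 68.1 CPM in dKO ImCD4 libraries, against 43.7, 46.5 and 39.3 CPM in control ImCD4 libraries. The lowest dKO library was well above the highest control (log2 fold change 0.77 ± 0.12, adjusted p = 0.000389). In ImCD8 it averaged 59.7 ± 10.1 CPM in dKO ImCD8 and 55.7 ± 4.02 CPM in control ImCD8 (0.11 ± 0.12, adjusted p = 0.701). Slc19a1, the reduced folate carrier, averaged 46.7 ± 8.59 CPM in dKO ImCD4 and 31.01 ± 2.51 CPM in control ImCD4 (0.59 ± 0.12, adjusted p = 0.00434). The concentrative nucleoside carrier Slc28a2 averaged 76.4 ± 4.74 CPM in dKO ImCD4 and 65.8 ± 1.71 CPM in control ImCD4 and did not pass (0.22 ± 0.08, adjusted p = 0.0842).

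Among carriers of metals and haem, Slc48a1, which moves haem out of lysosomes, averaged 60.6 ± 4.97 CPM in dKO ImCD4 and 40.5 ± 3.81 CPM in control ImCD4 (log2 fold change 0.58 ± 0.10, adjusted p = 0.000999). Slc39a6, a zinc importer, averaged 64.1 ± 4.30 CPM in dKO ImCD4 and 54.02 ± 2.81 CPM in control ImCD4 (0.25 ± 0.08, adjusted p = 0.0412), and its call was lost without any of the 3 control ImCD4 libraries or dKO ImCD4 replicate 1 or 2 (adjusted p up to 0.174) and in 5 of the other 9 alternatives. In neither population was a member of this class called lower.

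Among carriers of inorganic ions, Slc12a7, which moves potassium and chloride out of the cell, had 269, 280.0 and 205 CPM in dKO ImCD4 libraries, against 162, 199.9 and 146 CPM in control ImCD4 libraries (log2 fold change 0.57 ± 0.12, adjusted p = 0.00660). In ImCD8 it averaged 388 ± 27.2 CPM in dKO ImCD8 and 368 ± 14.6 CPM in control ImCD8 (0.08 ± 0.12, adjusted p = 0.804), and it was lower in control ImCD4 than in control ImCD8 (-1.12 ± 0.12, adjusted p = 3.95e-06). Slc4a2, an exchanger of chloride for bicarbonate, averaged 99.1 ± 4.43 CPM in dKO ImCD4 and 77.7 ± 3.66 CPM in control ImCD4 (0.35 ± 0.08, adjusted p = 0.00910). Slc4a4, which moves sodium together with bicarbonate, had 3.12, 3.54 and 4.38 CPM in dKO ImCD4 libraries, against 0.471, 0.552 and 0.636 CPM in control ImCD4 libraries. That is 113 reads in the 3 dKO libraries and 15 in the 3 controls, a log2 fold change of 2.69 ± 0.40. Since this gene met the count minimum through dKO ImCD4 libraries, the values are a description, and its count among the 28 follows in part from the rule.

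The lipid carriers Slc27a1 and Slc27a6, which take up long-chain fatty acids, both rose in dKO ImCD4. Slc27a1 averaged 138 ± 5.95 CPM in dKO ImCD4 and 97.8 ± 14.8 CPM in control ImCD4 (log2 fold change 0.50 ± 0.14, adjusted p = 0.0298) and Slc27a6 16.97 ± 3.83 CPM in dKO ImCD4 and 9.83 ± 2.64 CPM in control ImCD4 (0.79 ± 0.19, adjusted p = 0.0122). Slc27a1 lost its call without control ImCD4 replicate 1 or 2 or any dKO ImCD4 library (adjusted p up to 0.114), and Slc27a6 without control ImCD4 replicate 3 or dKO ImCD4 replicate 2 (up to 0.0721). Slc10a7, of the bile acid carrier family, fell to 24.7 ± 3.34 CPM in dKO ImCD4, against 31.6 ± 2.80 CPM in control ImCD4 (-0.36 ± 0.11, adjusted p = 0.0499). That call lay at the threshold and was lost in 9 of 12 runs without a single library (adjusted p up to 0.217): control ImCD4 replicate 1 or 3, dKO ImCD4 replicate 1 or 2, any control ImCD8 library, and dKO ImCD8 replicate 1 or 2.

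Slc37a2, a glucose 6-phosphate and phosphate exchanger of the endoplasmic reticulum, averaged 20.1 ± 2.16 CPM in dKO ImCD4 and 31.7 ± 3.85 CPM in control ImCD4 (-0.66 ± 0.19, adjusted p = 0.0303), and its call was lost without control or dKO ImCD4 replicate 1 or 2 (adjusted p up to 0.116). Of the members named, Slc25a11, Slc25a23, Slc25a51, Slc29a1, Slc30a4, Slc37a2, Slc48a1 and Slc4a2 are the 8 of 29 called whose exons overlap another gene model. Whether the counting used strand is not stated in the sources, so that how it treated reads in the shared stretches is not known. Reads that it marked as ambiguous (5.37% to 5.82% per library) were left out.

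**Figure D3:**
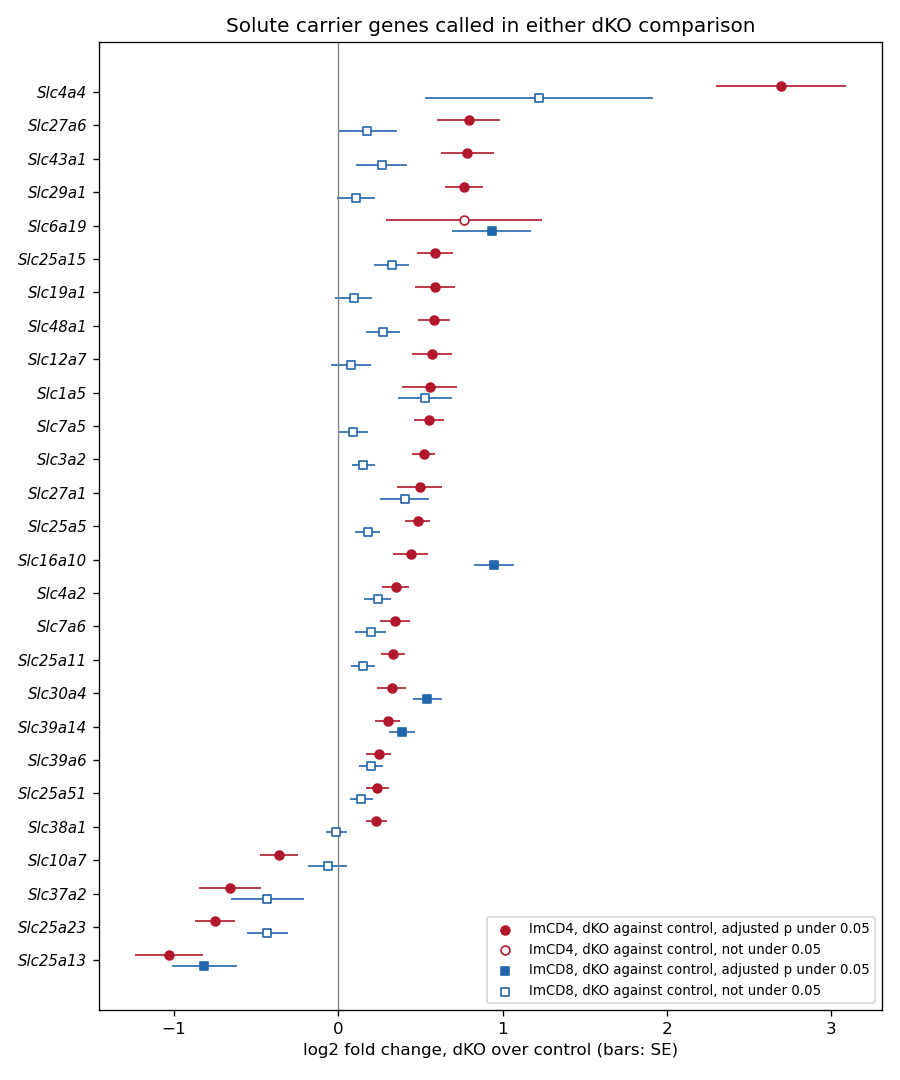
Log2 fold change, dKO over control (horizontal axis), of 27 of the 29 carriers that passed the test in either population, with bars of 1 SE; circles are ImCD4 and squares ImCD8, filled where the adjusted p was under 0.05. Slc16a10, Slc30a4 and Slc39a14 lie farther from 0 in ImCD8, and for the other genes drawn that passed in ImCD4 the ImCD4 value lies farther out.

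Whether the response of a carrier differed between the populations was tested directly, as the ImCD4 log2 fold change minus the ImCD8 one. None of the 167 members passed, against 0.433% of all genes; 20 members had an unadjusted p under 0.05, and DESeq2 called 1. The largest support was for Slc29a1, with a difference of 0.66 ± 0.16 (adjusted p = 0.116), which passed with DESeq2 (adjusted p = 0.0449) and without dKO ImCD8 replicate 2 (0.0202). Slc3a2 differed by 0.37 ± 0.10 (adjusted p = 0.155), Slc7a5 by 0.46 ± 0.13 (adjusted p = 0.179) and Slc16a10 by -0.51 ± 0.16 (adjusted p = 0.257). For none of the 167 members is a different response in the 2 populations shown by this fit, although more of them passed in ImCD4.

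More carriers passed between the populations than between genotypes. Between control ImCD4 and control ImCD8 cells 82 of 167 passed (44 higher and 38 lower in ImCD4), which is 49.1%, against 45.3% of all genes (22.1% higher, 23.1% lower). Between the dKO populations 76 passed (43 higher, 33 lower), which is 45.5%, against 43.7% of all genes (21.6% higher, 22.1% lower). Of these, 61 passed in both comparisons in the same direction, and 25 passed 2-fold in controls (13 higher, 12 lower) and 20 in dKO (11 higher, 9 lower). The B cell marker sums given above also differed between the populations, and their part in these calls was not tested. In bulk samples fewer cells with a transcript and less of it per cell cannot be told apart.

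Among controls the carrier highest in ImCD8 relative to ImCD4 was Slc6a19, at 2.18 ± 1.06 CPM in control ImCD4 and 45.2 ± 5.96 CPM in control ImCD8 (log2 difference -4.38 ± 0.36, adjusted p = 1.53e-06). Slc16a5, of the monocarboxylate family, had 16.5, 19.7 and 8.16 CPM in control ImCD4 libraries, against 79.7, 86.6 and 83.2 CPM in control ImCD8 libraries (-2.50 ± 0.22, adjusted p = 2.53e-06). Both also differed in dKO, by -4.55 ± 0.31 and -2.88 ± 0.22 (adjusted p = 3.76e-07 and 7.29e-07). Slc17a9, which loads ATP into vesicles, averaged 7.62 ± 1.66 CPM in control ImCD4 and 32.5 ± 8.38 CPM in control ImCD8 (-2.09 ± 0.31, adjusted p = 0.000169). Slc26a11 and Slc26a10, of an anion exchanger family, and Slc43a3, a nucleobase carrier, were lower in control ImCD4 as well, with log2 differences of -1.87, -1.58 and -1.49 (adjusted p = 0.000556, 1.15e-05 and 1.34e-05). The zinc importer Slc39a4 differed by -1.21 between the dKO populations (adjusted p = 0.00454).

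Higher in ImCD4 was Slc22a15, a carrier of organic cations and zwitterions, at 7.65 ± 1.20 CPM in control ImCD4 and 1.78 ± 0.593 CPM in control ImCD8 (log2 difference 2.10 ± 0.29, adjusted p = 2.11e-05). Slc16a10 had a control difference of 1.69 ± 0.12 (adjusted p = 1.25e-08). Slc39a8, a zinc and manganese importer, averaged 9.91 ± 1.47 CPM in control ImCD4 and 3.11 ± 0.0280 CPM in control ImCD8 (1.67 ± 0.18, adjusted p = 2.27e-06). Slc9a9, an endosomal sodium and proton exchanger, had 216, 216 and 166 CPM in control ImCD4 libraries, against 72.1, 81.98 and 56.03 CPM in control ImCD8 libraries (1.51 ± 0.18, adjusted p = 3.54e-05). Slc37a2 and Slc27a1 followed, with control differences of 1.54 and 1.31 (adjusted p = 1.75e-05 and 7.65e-06).

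**Figure D4:**
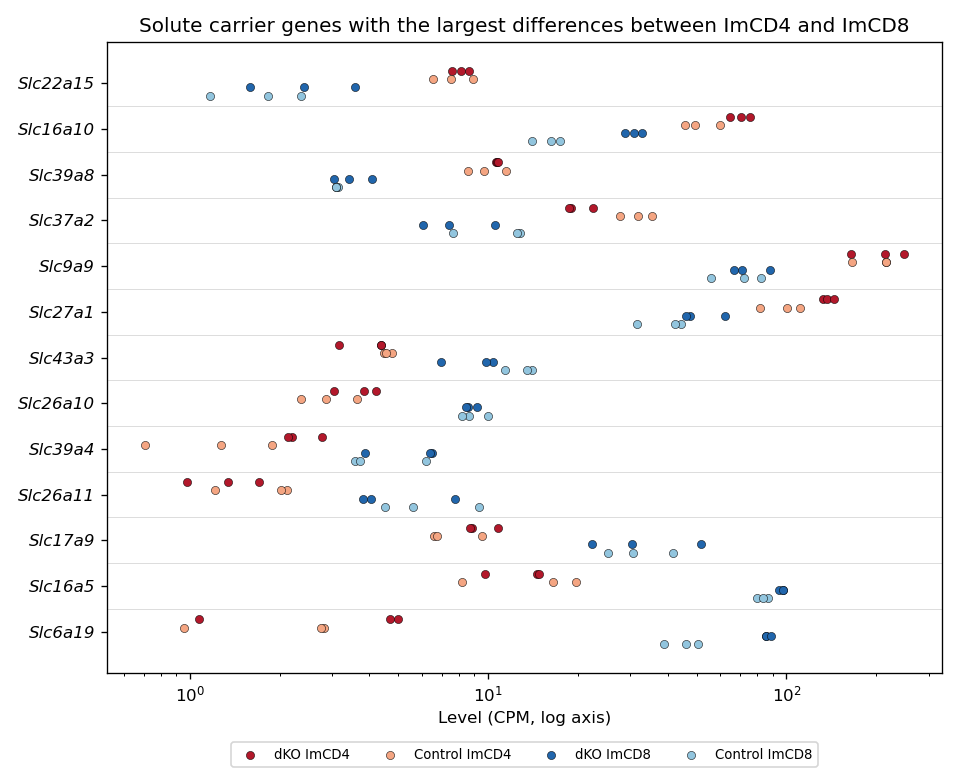
Level in CPM (log axis) of 13 carriers with the largest differences between ImCD4 and ImCD8 (at least 5 CPM in the higher group and no overlap of libraries, in controls or in dKO), with 1 point per library and 3 libraries per group. The upper 6 genes are higher in ImCD4 and the lower 7 higher in ImCD8, and Slc6a19 at the bottom lies between 0.954 and 4.996 CPM in ImCD4 and between 38.9 and 88.7 CPM in ImCD8.

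Some abundant carriers showed no call with genotype. Slc44a2 averaged 761 ± 38.2 CPM in dKO ImCD4 and 852 ± 49.4 CPM in control ImCD4 (log2 fold change -0.16 ± 0.07, adjusted p = 0.122), and Slc38a2 439 ± 56.1 CPM in dKO ImCD4 and 468 ± 56.96 CPM in control ImCD4 (-0.09 ± 0.10, adjusted p = 0.598). Slc35a1, which brings CMP-sialic acid into the Golgi, gave 0.17 ± 0.13 in ImCD4 (adjusted p = 0.430) but was higher in control ImCD4 than in control ImCD8 by 0.90 ± 0.14 (adjusted p = 9.99e-05). The vitamin C carrier Slc23a2 gave -0.02 ± 0.08 (adjusted p = 0.899), with SEs small enough that a 2-fold change lay far outside them for each of these 4 genes.

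Genes that work beside carriers were read from the same fit: 35 were listed, 32 tested, and 7 passed in ImCD4 (6 higher, 1 lower; 21.9%, against 13.4% of all genes) and 2 in ImCD8 (1 higher, 1 lower; 6.25%, against 6.14%). Bsg, the chaperone of monocarboxylate carriers, averaged 248 ± 12.5 CPM in dKO ImCD4 and 199 ± 7.76 CPM in control ImCD4 (log2 fold change 0.32 ± 0.06, adjusted p = 0.00357). The ferritin heavy chain Fth1, which stores iron, passed in both populations, by 0.36 ± 0.08 in ImCD4 and 0.30 ± 0.08 in ImCD8 (adjusted p = 0.00533 and 0.0291). Nedd4l, a ubiquitin ligase that removes carriers and channels from the membrane, gave 0.48 ± 0.11 in ImCD4 (adjusted p = 0.0102). Vdac2, a channel of the outer mitochondrial membrane, gave 0.26 ± 0.07 in ImCD4 (adjusted p = 0.0273), while Vdac1 fell in dKO ImCD8 (-0.26 ± 0.07, adjusted p = 0.0489). The sodium pump subunit Atp1b1 rose in ImCD4 (0.46 ± 0.08, adjusted p = 0.00112), the lysosomal GTPase Rragc, which signals amino acid supply to mTOR, rose by 0.21 ± 0.07 (adjusted p = 0.0494), and Wnk1, a kinase that regulates chloride cotransporters, fell (-0.24 ± 0.07, adjusted p = 0.0411). Mtor itself gave 0.06 ± 0.08 and Atf4, the transcription factor of the amino acid response, 0.21 ± 0.08 in ImCD4 (adjusted p = 0.669 and 0.0956). Of the symbols left aside, Slc12a8 averaged 49.3 ± 2.12 CPM in dKO ImCD4 and 0.340 ± 0.203 CPM in control ImCD4. It lies at chr16:33517328-33664135 (plus strand), after the deleted gene Zfp148 at chr16:33380836-33504363 (plus strand). The part of this position in its level was not tested. Slc2a3, a glucose carrier also left aside, fell in both populations (-0.78 ± 0.08 in ImCD4 and -1.73 ± 0.09 in ImCD8, adjusted p = 1.05e-05 and 5.64e-09).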

How the data were processed

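The authors deposited 1 table of raw read counts per gene for each of 12 libraries. Per the submitters' processing notes, reads were trimmed with cutadapt 1.18, aligned to mm10 with STAR 2.6.1 and counted with HTSeq; the annotation and any use of strand in counting were not stated in the sources used. The 5 HTSeq summary lines were left out of library sizes and tests (10.5% to 16.4% of reads had no feature). Groups follow the titles.

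From these counts, genes kept by filterByExpr (minimum count 10, minimum total 15; 13383 genes) were scaled with TMM factors and fitted with edgeR 4.0.16 in R 4.3.3 (robust quasi-likelihood, 4 group means over all 12 libraries, 8 residual degrees of freedom). Tests were two-sided, and p-values were adjusted by Benjamini-Hochberg over all tested genes. A gene is said to have passed, or to be called, where the adjusted p was under 0.05. Levels are CPM on TMM-scaled library sizes, except those of cell type markers, which are CPM on library sizes without TMM scaling. Intervals are SD between libraries or SE. The SE was derived from the test, as the size of the log2 fold change divided by the square root of its F statistic. Gene positions and exon lengths come from GENCODE M21 (all 168 genes matched). Alternatives were other scalings, DESeq2 1.42.0, limma-voom (limma 3.58.1), other filters, the 6 libraries compared alone, and leaving libraries out.

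Members, classes and lists were chosen with earlier results of these data known. Genes named are the 10 largest called rises and falls per dKO comparison and the 6 per direction in each comparison of populations (at least 5 CPM in the higher group, no overlap of libraries) and abundant members of each class. The other called members, and those with no call that are named, were chosen after their values were seen, as was the move of Slc6a19 into the amino acid class. Values of some members that the rule names are not reported here. Replicates were numbered in accession order.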

Additional observations from a re-analysis of the deposited data

Results flagged for a closer look

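Of the 5 symbols left aside and the listed genes that work beside carriers, Atp1b1 and Slc2a3 had an effect of the double knockout that differed between the populations in the direct test. Atp1b1, a sodium pump subunit from the list of genes that work beside carriers, averaged 74.7 ± 3.74 CPM in dKO ImCD4 and 54.5 ± 2.43 CPM in control ImCD4, and 102 ± 5.25 CPM in dKO ImCD8 and 116 ± 8.71 CPM in control ImCD8; the ImCD4 change minus the ImCD8 change was 0.64 on the log2 scale (adjusted p = 0.0124). Slc2a3, a glucose carrier left aside by the rule, averaged 78.2 ± 5.25 CPM in dKO ImCD4 and 134 ± 6.502 CPM in control ImCD4, and 27.6 ± 2.85 CPM in dKO ImCD8 and 91.8 ± 4.43 CPM in control ImCD8; its difference was 0.94 (adjusted p = 0.00143), from the larger fall in dKO ImCD8.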

How the results depend on the processing

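With 28 members called in ImCD4 and 5 in ImCD8, 15 and 3 of them were called in every alternative in which they were tested. Leaving out single libraries gave 16 to 30 calls in ImCD4, 3 to 8 in ImCD8, 0 to 1 for the difference of the effects, 59 to 75 between the dKO populations and 70 to 87 between the controls. Where it left 2 libraries in a group, the spread was taken from all groups. The ImCD8 count was 8 with DESeq2, 11 with no filter on low counts, 10 without replicate 3 of each group and 14 with a term for those 4 libraries. The ImCD4 count was 24 with library size only, 36 with limma-voom and 36 with that term. The count for the difference, 0, was 1 with DESeq2 (Slc29a1), 3 with no filter (Slc29a1, Slc12a7 and Slc7a5) and 1 with that term (Slc29a1). The number called in both populations, 4, was 8 without replicate 3 of each group and 7 with the term. The cause was not tested. No estimate of a called member changed sign. Other scalings moved the median of all genes by less than 0.1 on the log2 scale. No paired analysis was possible because the labels give the groups no shared replicate numbers, and numbers in accession order pair no libraries. Beside the losses given above, ImCD4 calls of named members were lost by Slc1a5 (library size only, adjusted p = 0.0532), Slc27a1 (library size only, 0.0588), Slc30a4 (no filter, 0.0531), Slc10a7 (the 6 ImCD4 libraries alone, 0.0588), Slc38a1 (no filter) and Slc25a51 (4 settings, up to 0.115). Depth limits low members: the SE of the ImCD4 log2 fold change was 0.40 for Slc4a4, against 0.07 for Slc3a2.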

Other observations

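Several carriers with large or near-threshold estimates did not pass. In dKO ImCD4 cells the lysosomal glutamine exporter Slc38a7 averaged 10.6 ± 1.44 CPM in dKO ImCD4 and 15.4 ± 1.83 CPM in control ImCD4 (log2 fold change -0.54 ± 0.18, adjusted p = 0.0547), and Slc38a9, the lysosomal arginine sensor upstream of mTOR, averaged 25.2 ± 3.13 CPM in dKO ImCD4 and 33.03 ± 2.73 CPM in control ImCD4 (-0.39 ± 0.13, adjusted p = 0.0587). The vitamin C carrier Slc23a1 averaged 2.35 ± 0.0560 CPM in dKO ImCD4 and 3.88 ± 0.578 CPM in control ImCD4 (-0.72 ± 0.24, adjusted p = 0.0587). In ImCD8 Slc5a9, a sodium-coupled sugar carrier, averaged 2.02 ± 0.898 CPM in dKO ImCD8 and 0.650 ± 0.198 CPM in control ImCD8 (1.60 ± 0.48, adjusted p = 0.0618), and Slc20a1, a phosphate importer, averaged 77.3 ± 8.78 CPM in dKO ImCD8 and 62.1 ± 7.95 CPM in control ImCD8 (0.31 ± 0.10, adjusted p = 0.0784). These genes were picked after their values were seen.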
